A study of Bos taurus with 12 samples.

Results

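Ribosome biogenesis factors are the proteins that cut, modify, fold and assemble precursor ribosomal RNA into ribosomal subunits, mostly in the nucleolus. The set described here held 62 of the 29240 genes in the count table. Its rule used gene symbols and no measured value, but it was chosen with earlier results of these data known. It took the numbered NOP, UTP, NOL, RRP and EXOSC genes, IMP3 and IMP4, the abundant nucleolar proteins NCL and NPM1, the snoRNP proteins FBL, DKC1, GAR1 and NHP2, and the assembly factors BYSL, PES1, BOP1, WDR12, BRIX1, RRS1, NIP7 and GNL3. By role there were 3 proteins of the box C/D snoRNP, 4 of the box H/ACA snoRNP, 24 of small subunit processing, 16 of large subunit assembly, 10 of the RNA exosome and 2 abundant nucleolar proteins. The remaining 3, NOL3, NOL4 and NOL4L, matched by name only, and NOL3 is known as a repressor of apoptosis. RRP8, a methyltransferase of a base in large subunit ribosomal RNA, was listed among the 24 of the small subunit. Of the 62 genes, 61 passed the filter on low counts, and NOL4, with 0 to 12 counts per library, did not.

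As background, RNA polymerase I copies the ribosomal DNA into a long precursor RNA, and small nucleolar ribonucleoproteins (snoRNPs) guide methyl groups and pseudouridines onto it. The small subunit processome then folds and cleaves the part that becomes the small subunit, while assembly factors build the large subunit and the RNA exosome trims the spacers. The genes of this pathway are known for following the growth state of a cell and for being targets of the transcription factor MYC.

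Bovine (Bos taurus) precursor adipocytes, fibroblast-like cells that can develop into fat cells, were profiled in 12 libraries, 3 in each of 4 groups, and every group was harvested 48 h after transfection. The si group received an interference transfection whose target the labels do not name, and si_NC was its negative control. The OE group received the plasmid pcDNA3.1 carrying HGFAC, the protease that activates hepatocyte growth factor, and OE_NC received the pcDNA3.1 control. The labels do not say that the libraries of a group came from separate cultures or animals, so the p-values measure only the spread between these libraries, which may be technical. In bulk RNA, fewer cells of a type and less RNA per cell cannot be told apart.

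Counts assigned to genes summed to 28.9 to 42.7 M reads per library, with 35.9 to 42.7 M in si and 28.9 to 32.2 M in si_NC. HGFAC was at 161 ± 26.3 CPM (counts scaled to normalised library size) in OE and 0.393 ± 0.127 in OE_NC, and at 0.658 ± 0.165 in si and 0.830 ± 0.0987 in si_NC (SD, n = 3). The stromal markers COL1A2 and VIM were abundant (7200 and 5940 CPM over all libraries). Precursor markers ranged from PDGFRA (275), PDGFRB (109) and PPARG (16.7) to DLK1 (0.0689) and CD34 (0.0287). Of the fat cell markers, ADIPOQ (0.0604) was near 0, while FABP4 was at 7.10, PLIN1 at 1.41 and CIDEC at 1.11 CPM. PTPRC, EPCAM, MYOD1 and MYOG were near 0, while the immune marker CD68 was at 4.40 and the epithelial marker KRT19 at 1.90 CPM. The muscle marker DES was at 716 ± 15.7 CPM in OE and 536 ± 36.8 in OE_NC, while ACTA1 was at 9.69 ± 0.781 in OE and 15.5 ± 1.76 in OE_NC. The 4 muscle markers listed (DES, ACTA1, MYOD1 and MYOG) summed to 713 to 743 CPM in OE, 517 to 589 in OE_NC, 478 to 632 in si and 478 to 573 in si_NC, and their part in the results was not tested. Within the interference experiment, si replicate 3 and si_NC replicate 2 stood apart from the other libraries of their groups in the summed level of the members, and results that rest on them are given with and without them.

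The biogenesis factors were expressed well above the typical gene. Their median level was 23.8 RPKM (reads scaled to exon length and sequencing depth), against 2.94 over the 16300 genes tested, and 45 of the 62 reached 10 RPKM while 3 stayed below 1 RPKM. NCL, nucleolin, an RNA chaperone of the nucleolus, stood at 2931 RPKM and NPM1, nucleophosmin, a pentameric nucleolar scaffold protein, at 1767 RPKM. All members together took 1.39 to 2.21% of the counts of a library, of which NCL alone took 0.657 to 1.11%.

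Within complexes the per-length levels were uneven. In the box C/D snoRNP, which methylates ribosomal RNA, the scaffold proteins NOP58 and NOP56 stood at 288 and 207 RPKM and the methyltransferase FBL at 132 RPKM, a ratio of 2.19 between the highest and the lowest. In the box H/ACA snoRNP the pseudouridine synthase DKC1 was at 206 RPKM, NHP2 at 51.8, GAR1 at 49.9 and NOP10 at 3.40 RPKM. NOP10 encodes a very small protein, and the deposited exon length of 2940 bases, against 736 for NHP2, enters its RPKM value directly. In the PES1, BOP1 and WDR12 complex, which acts in large subunit maturation, PES1 stood at 123 RPKM, WDR12 at 15.6 and BOP1 at 6.44, so the highest was 19.1 times the lowest. Among the 10 exosome genes, levels ran from EXOSC9 at 42.7 and EXOSC2 at 22.1 RPKM to EXOSC6 at 1.47, a ratio of 29.1. The most abundant small subunit factors were UTP14A (220 RPKM) and NOL7 (137 RPKM) and the least abundant was IMP3 (0.820 RPKM). Among large subunit factors, RRP15 (153 RPKM) and PES1 were highest and NIP7 (3.89 RPKM) was lowest.

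**Figure D1:**
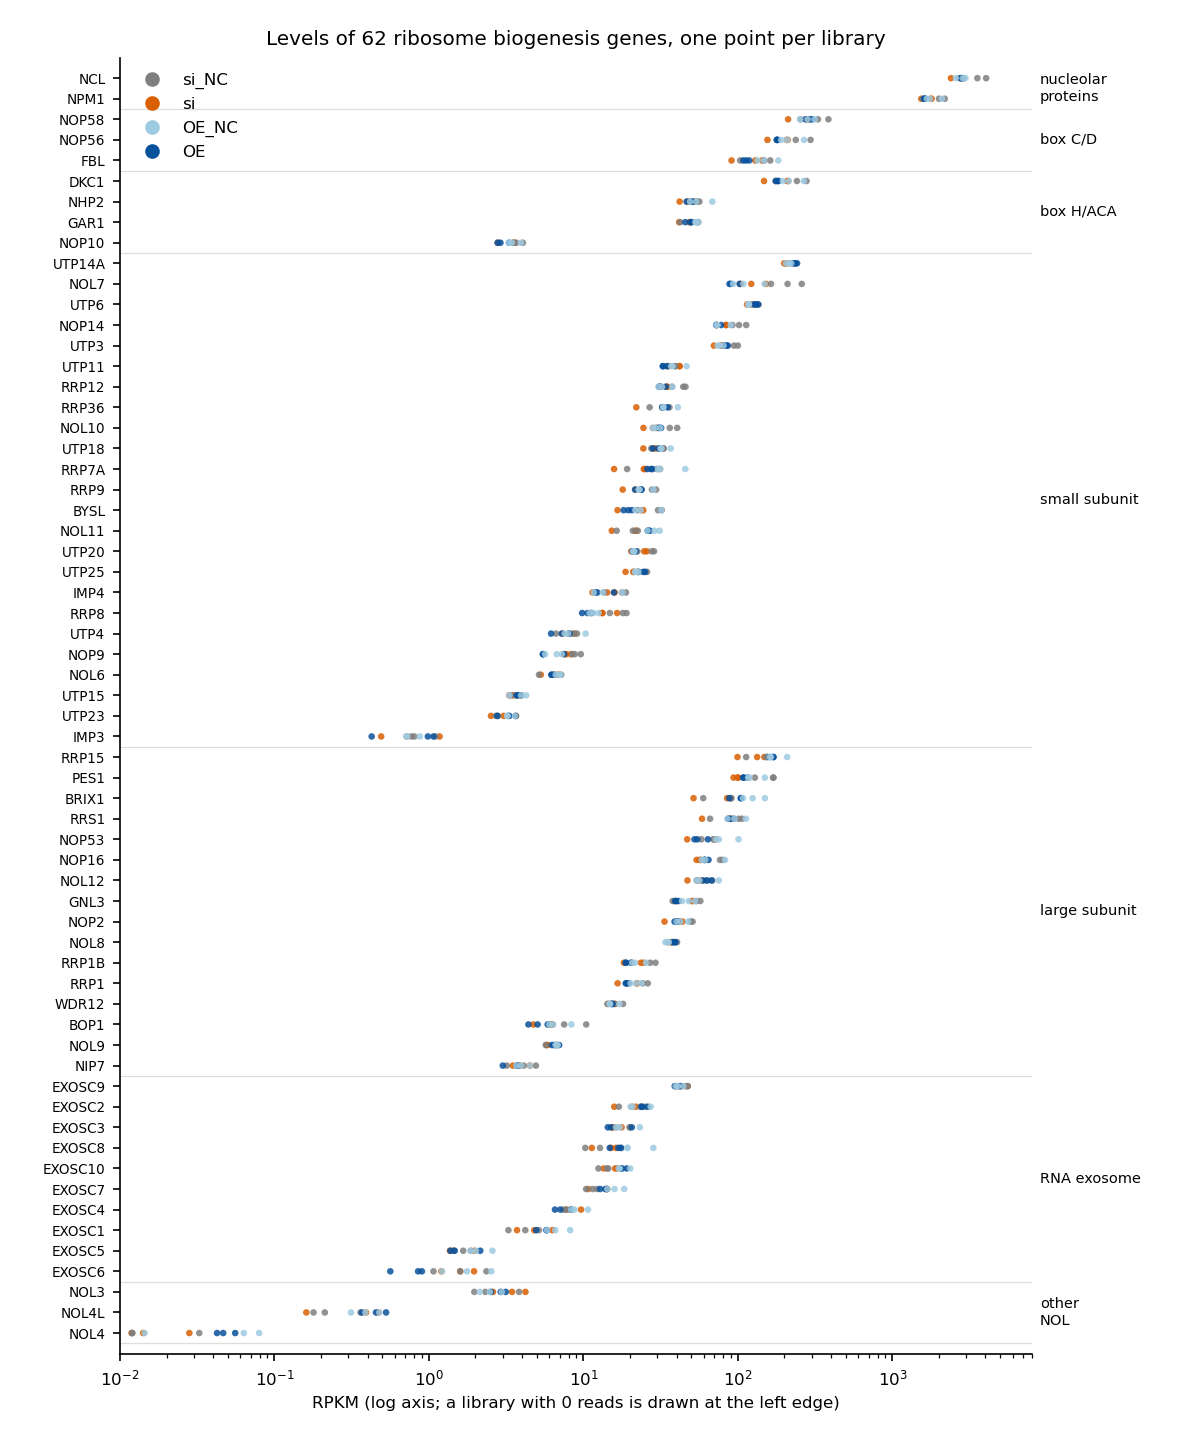
RPKM on a log axis for the 62 genes, grouped by role and ordered by mean level within a role, with 1 point per library coloured by group. NCL (mean 2931) and NPM1 (mean 1767) lie above every other member, and NOL4 lies lowest with reads missing in some libraries.

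The genome positions given here are those of the count table, whose build no label or header names. The members lay on 24 chromosomes, with 7 on chromosome 18. Just 4 pairs of members lay within 200 kb of each other, the closest being RRP12 and EXOSC1 on chromosome 26, 24.6 kb apart with 1 gene between them. Many genes of this pathway are known hosts of intronic snoRNAs, and 5 of the 61 tested members (8.20%) held snoRNA entries within their bounds, against 1.67% of all genes tested. NOP56 held 5, NOP58 4, NCL 3, GNL3 3 and NOP53 1. Exons of EXOSC3 shared 339 of 1095 bases with TRMT10B on the opposite strand, and those of EXOSC8 shared 89 of 951 bases with SUPT20H. No source used here gives the counting strand, so the values of these pairs are uncertain. The same holds for RRP7A, which shared 436 bases with SERHL2, and for EXOSC4, which shared 207 of 839 bases with LOC107133095.

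Many members were highest, or lowest, in the same libraries. The summed level of all members was 16303, 16229 and 13770 CPM in si replicates 1, 2 and 3, 23295, 16009 and 20613 CPM in si_NC, 16610, 16491 and 16259 CPM in OE, and 18259, 16102 and 15161 CPM in OE_NC. The OE libraries were the most alike, whereas the si_NC libraries spread widely: si_NC replicate 2 lay inside the range of si, and si_NC replicates 1 and 3 lay above all other libraries. NCL was at 11703, 7591 and 10119 CPM in si_NC and 7672, 7524 and 6491 CPM in si, with si_NC replicates 1 and 3 again above the other libraries of these groups. The 60 members other than NCL and NPM1 summed to 8354, 6163 and 7565 CPM in si_NC against 6182, 6241 and 5141 CPM in si. Of the 61 tested members, 30 (49.2%) had their highest CPM in si_NC replicate 1 and 21 (34.4%) in OE_NC replicate 1, where 2054 and 2450 of the 16300 genes tested peaked in these libraries. The lowest library was si replicate 3 for 34 members (55.7%), against 14.9% of all genes. The summed level of 10 precursor and stromal markers, most of it COL1A2 and VIM, ran in part the other way. This sum was 14380, 14214 and 17787 CPM in si and 11043, 14316 and 11752 CPM in si_NC. Its part in the members' levels was not tested.

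**Figure D2:**
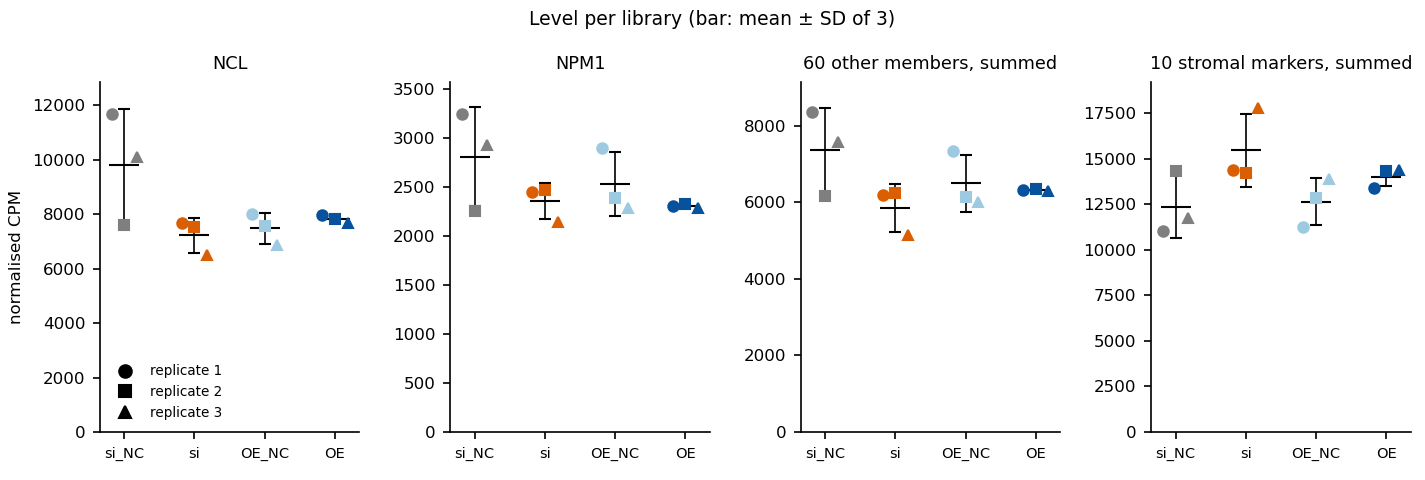
Normalised CPM per library for NCL, NPM1, the other 60 members summed and 10 stromal markers summed, by group, with bars for the mean ± SD of 3 libraries and a symbol per replicate number. si_NC replicates 1 and 3 are high in the first 3 panels, and si replicate 3 is the lowest there. The stromal sum, mostly COL1A2 and VIM, is highest in si replicate 3.

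Members differed in how far they varied. UTP6, a processome protein, varied 1.25-fold between its lowest and highest library, NOL9, a polynucleotide kinase of large subunit RNA processing, 1.26-fold, and UTP14A 1.27-fold. BRIX1, a large subunit assembly factor, varied 2.88-fold, NOL7 3.04-fold and the lowly expressed EXOSC6 4.35-fold.

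The first comparison asked how the interference transfection altered these genes relative to its control. In si, 6 of the 61 members were lower than in si_NC and 0 were higher by edgeR (adjusted p under 0.05), where 2.54% of all 16300 genes tested were called, 1.62% lower and 0.92% higher. The 6 were the large subunit factor PES1 and the small subunit factors NOL7, UTP3, NOL10, NOP14 and RRP12. The log2 change was negative for 55 of the 61 members, with a median of −0.25 against 0.02 over all genes tested, and 26 members had an unadjusted p under 0.05 for lower and 0 for higher, against 9.88% and 9.03% of all genes. In 15 members every si library lay below every si_NC library, a separation seen in 10.6% of all genes. With library totals in place of TMM scaling, calls among all genes went from 150 higher and 264 lower to 298 higher and 106 lower, and 2 members were called, both lower. With each library's trend on exon length removed, 17 members were called, all lower, and all genes split into 175 higher and 918 lower.

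PES1, pescadillo, a large subunit assembly factor on chromosome 17 (69555245 to 69568689, minus strand), was at 245, 241 and 230.0 CPM in si and at 446, 326 and 436 CPM in si_NC. The groups did not overlap, and the si libraries lay close together while si_NC replicate 2 was lower than its partners. It fell by 0.75 on the log2 scale (SE 0.11, edgeR adjusted p = 0.00698), a drop of 40.7% from 402 ± 66.6 to 239 ± 7.66 CPM. The call held without each library in turn, with log2 changes of −0.89 to −0.68, and ended in a fit of these 6 libraries alone (edgeR adjusted p = 0.0640). Its complex partner BOP1 was at 15.4, 15.6 and 12.1 CPM in si and 28.2, 19.6 and 16.9 CPM in si_NC, a log2 difference of −0.59 ± 0.18 (SE) that did not pass (edgeR adjusted p = 0.0993). WDR12, the third member of that complex, differed by −0.15 ± 0.10 (adjusted p = 0.450) and its groups overlapped.

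NOL7, a nucleolar protein of small subunit processing on chromosome 23 (43019265 to 43023522, minus strand), was at 94.7, 137 and 112 CPM in si and 253, 198 and 157 CPM in si_NC. All 3 si libraries were below all si_NC libraries, although both groups spread widely. It fell by 0.82 on the log2 scale (SE 0.18, edgeR adjusted p = 0.0303), and the call ended without si_NC replicate 1 or either of si replicates 1 and 2, where the sign stayed the same (−0.98 to −0.63 over the 6 refits).

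The other 4 calls were smaller. UTP3, a processome protein also known as SAS10 (chromosome 6, 86070648 to 86073187, plus strand), was at 196, 192 and 176 CPM in si and 268, 212 and 249 CPM in si_NC, a fall of 0.37 on the log2 scale (SE 0.08, edgeR adjusted p = 0.0335). NOL10 (chromosome 11, 86971483 to 87061429, plus strand) was at 89.1, 93.2 and 77.9 against 137.6, 98.7 and 121 CPM, and fell by 0.46 (SE 0.10, adjusted p = 0.0342). Both encode components of the early small subunit precursor, and in both si_NC replicate 2 was the control library nearest to si. NOP14 (chromosome 6, 115790492 to 115805594, plus strand), needed for cleavage of the small subunit precursor, fell by 0.43 (SE 0.10, adjusted p = 0.0364) from 361 ± 43.4 to 268 ± 18.9 CPM. RRP12 (chromosome 26, 18603840 to 18632735, minus strand), an export factor of pre-ribosomal subunits, fell by 0.42 (SE 0.10, adjusted p = 0.0376) from 199 ± 24.2 to 149 ± 8.89 CPM. Each of these 4 kept its call only without si_NC replicate 2 among the 6 refits that left out 1 library.

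**Figure D3:**
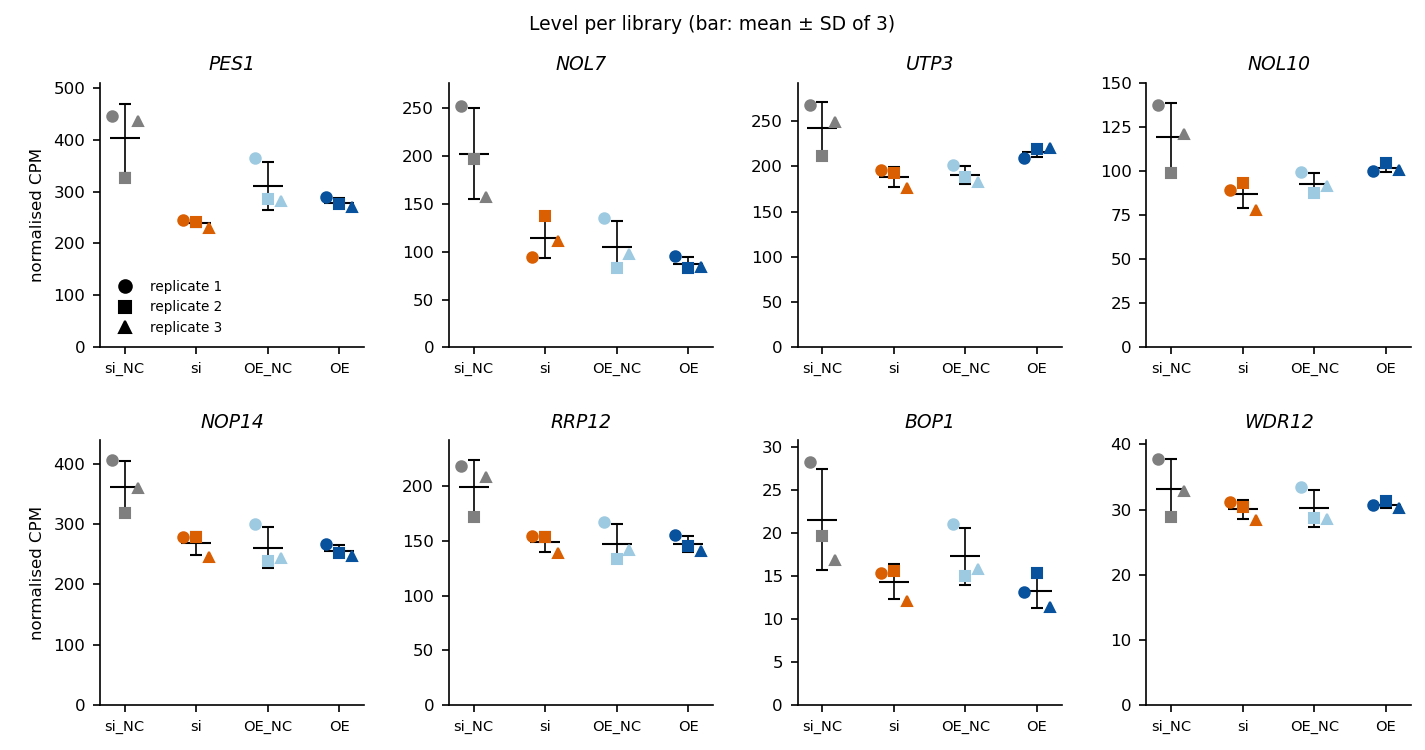
Normalised CPM per library for the 6 members called lower in si than in si_NC and for BOP1 and WDR12, by group, with bars for the mean ± SD of 3 libraries and a symbol per replicate number. For the 6 called genes all si points lie below all si_NC points, and si_NC replicate 2 is the lowest control in all of them but NOL7.

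By role, all 24 genes listed under the small subunit, RRP8 included, had a negative log2 change in si (median −0.27, 5 called). The same held for all 16 large subunit factors (median −0.25, 1 called) and the 3 box C/D proteins (median −0.40, 0 called). It also held for the 4 H/ACA proteins (median −0.25, 0 called) and for NCL and NPM1. The exosome genes were nearer 0, with a median of −0.07, 6 negative and 4 positive changes and 0 called; the difference between roles was not tested. NCL was at −0.44 ± 0.12 (adjusted p = 0.0646), NOP58 at −0.40 ± 0.14 (0.144), NOP56 at −0.40 ± 0.17 (0.210), DKC1 at −0.37 ± 0.16 (0.232), NPM1 at −0.26 ± 0.12 (0.244) and UTP14A at −0.25 ± 0.06 (0.0513), all by edgeR with SE. NOL3 and NOL4L, the name-only matches, were at 0.26 ± 0.23 and 0.37 ± 0.34.

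The count of 6 depended on single libraries. It was 1 without si_NC replicate 1 and 1 without either of si replicates 1 and 2, 2 without si_NC replicate 3, 3 without si replicate 3 and 24 without si_NC replicate 2, all lower. Calls among all genes moved in the same refits, from 414 to 56 without si_NC replicate 1, 73 and 69 without si replicates 1 and 2, 135 without si_NC replicate 3, 685 without si replicate 3 and 1083 (6.45% of the genes tested there) without si_NC replicate 2. The member count was 19 without si replicate 3 and si_NC replicate 2 together, 15 by the DESeq2 Wald test and 0 in a fit of the si and si_NC libraries alone. In these fits all genes gave 1119 (6.70%), 1125 (6.90%) and 8 calls. The 2 libraries left out together were picked by the members' own summed level, so that refit is not an independent check.

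**Figure D4:**
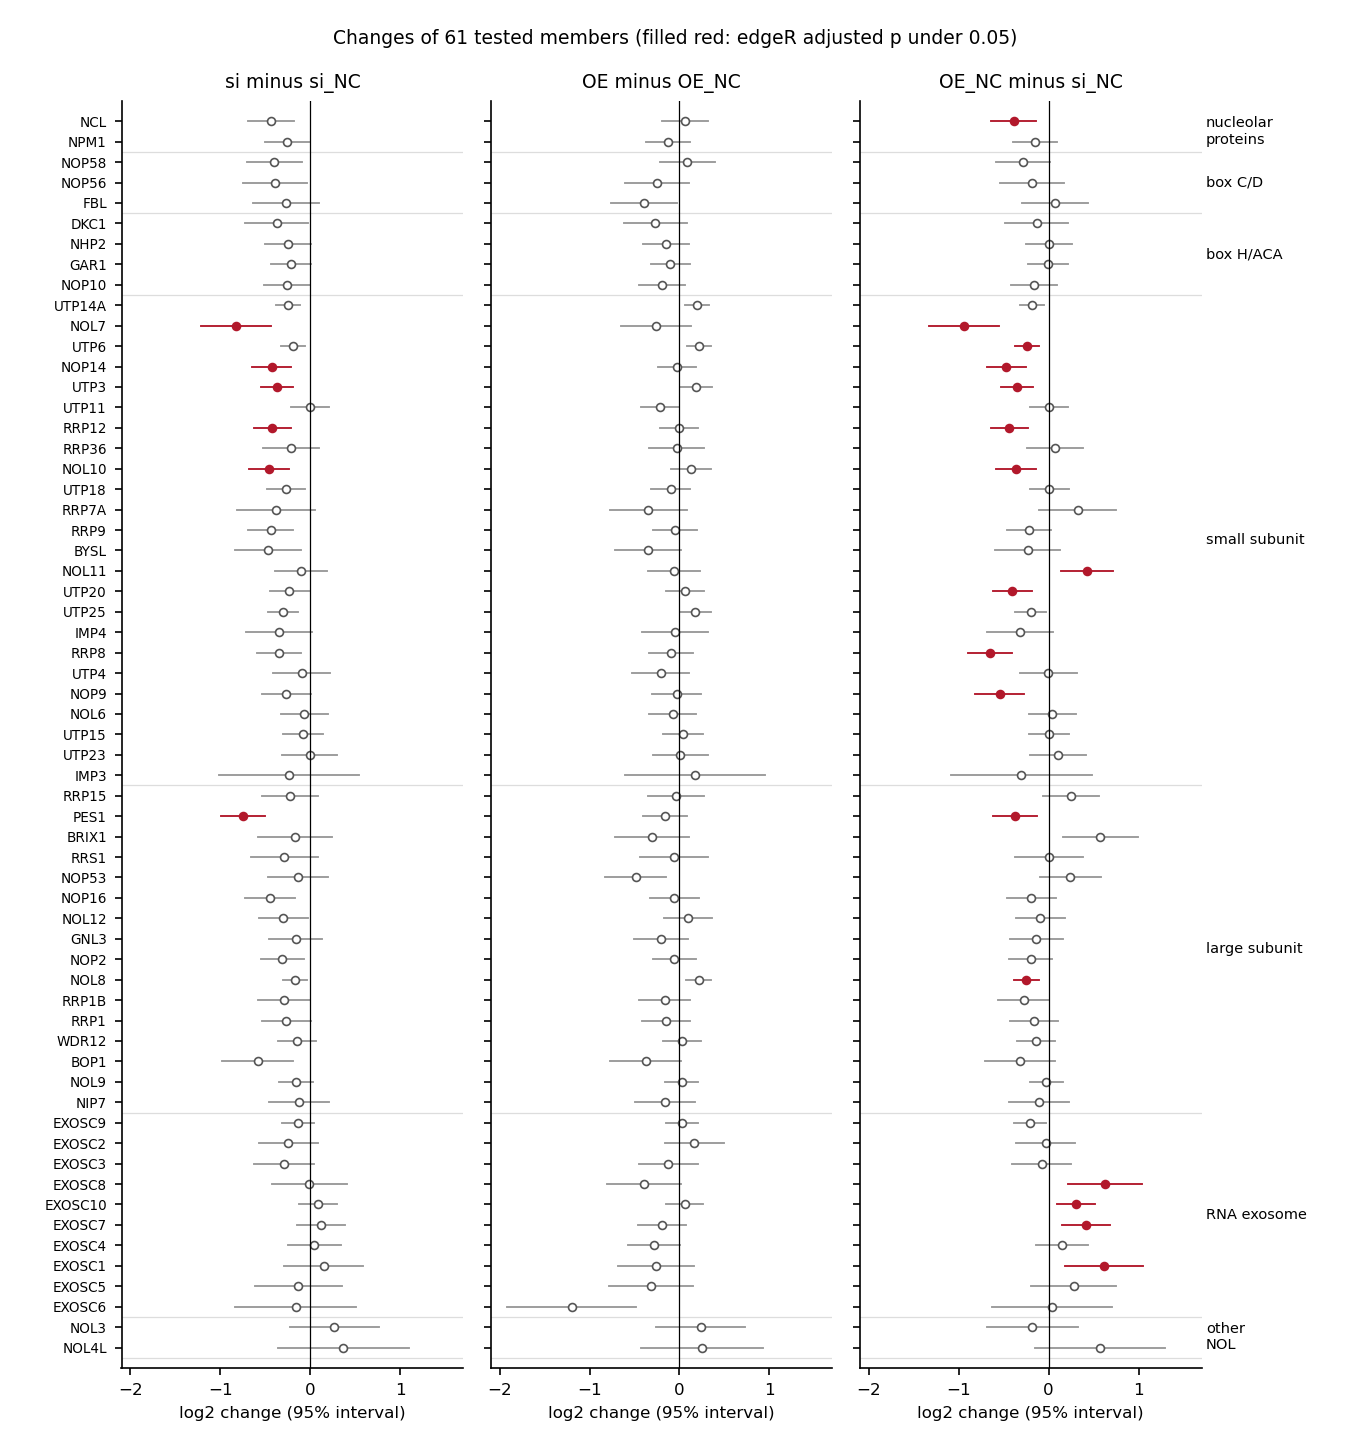
log2 change with its 95% interval for the 61 tested members in si minus si_NC, OE minus OE_NC and OE_NC minus si_NC, ordered as in the plot of levels, with edgeR calls in filled red. In si most points lie left of 0 and 6 are called, in OE 0 are called, and between the controls 12 are called lower and 5 higher; the si_NC libraries enter the first and last panels and the OE_NC libraries the second and last.

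The second comparison asked how HGFAC overexpression altered the members relative to the plasmid control. By edgeR, 0 of the 61 members were called, where 4.47% of all genes were (2.22% higher and 2.25% lower). At an unadjusted p under 0.05 there were 5 higher and 4 lower members, against 11.1% and 11.8% of all genes. The median log2 change of the members was −0.06 against 0.00 over all genes, with 20 positive and 41 negative. The DESeq2 Wald test called 5 members (3 higher, 2 lower), limma on log2 RPKM called 0, and a fit of the OE and OE_NC libraries alone called 5 (2 higher, 3 lower). All genes gave 1546 calls (9.48%) by DESeq2 and 1621 (10.3%) in the fit of these libraries alone. By limma they gave 612 (3.75%) with 1 added to RPKM and 523 (3.21%) with 0.1 added. With library totals, calls among all genes went from 362 higher and 366 lower to 159 higher and 653 lower, and 1 member was called, lower. With the length trend removed, 0 members were called, their median change was 0.00, and all genes split into 393 higher and 146 lower.

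The members nearest to a call moved in both directions. UTP6 was at 450, 443 and 461 CPM in OE and 392, 383 and 389 CPM in OE_NC, a log2 difference of 0.22 ± 0.06 (SE, edgeR adjusted p = 0.0599). UTP14A, a processome protein that activates a helicase in yeast, was at 582, 605 and 613 against 548, 498 and 526 CPM (0.20 ± 0.06, adjusted p = 0.0820). NOL8, a nucleolar protein placed with large subunit factors here, was at 186, 188 and 179 against 161, 154 and 163 CPM (0.21 ± 0.06, adjusted p = 0.0667). In all 3 genes the OE libraries lay above the OE_NC libraries without overlap; 7 members separated this way, where 17.4% of all genes did, and 11 separated in the other direction, where 16% did. EXOSC6, a ring subunit of the exosome, was at 1.11, 0.740 and 1.17 CPM in OE and 3.22, 1.52 and 2.21 CPM in OE_NC, a log2 difference of −1.20 ± 0.34 (adjusted p = 0.0559) at a level of few counts. NOP53, a large subunit factor, was at 99.2, 85.5 and 81.0 against 152, 107 and 113 CPM (−0.49 ± 0.16, adjusted p = 0.0857). FBL was at 131 ± 5.65 in OE and 172 ± 29.2 CPM in OE_NC (−0.40 ± 0.17, adjusted p = 0.189), and NCL at 7824 ± 154 and 7487 ± 570.0 CPM (0.06 ± 0.12).

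The controls were compared next, since both experiments rest on them. OE_NC and si_NC differ in experiment as well as in the transfected material, so the effects of these cannot be told apart. Of the 61 members, 12 were lower in OE_NC than in si_NC and 5 higher, where 19.7% of all genes were called by edgeR, 10.2% lower and 9.49% higher. The 12 lower members were NCL, the large subunit factors PES1 and NOL8, and 9 listed under the small subunit: RRP8, NOL7, NOP14, RRP12, NOP9, UTP3, UTP20, UTP6 and NOL10. The 5 higher members were the exosome genes EXOSC1, EXOSC7, EXOSC8 and EXOSC10 and the small subunit factor NOL11. The split moved to 7 lower and 6 higher with library totals (all genes 944 and 2298 in place of 1668 and 1547) and to 20 lower and 0 higher with each library's trend on exon length removed (all genes 2757 and 1037).

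RRP8, a methyltransferase of a base in large subunit ribosomal RNA that was grouped with small subunit genes, was at 20.4, 18.6 and 17.7 CPM in OE_NC and 31.4, 25 and 32.7 CPM in si_NC. Its log2 change was −0.65 ± 0.12 (edgeR adjusted p = 0.00183), with no overlap. NOL7 was at 135, 83.2 and 97.7 against 253, 198 and 157 CPM (−0.94 ± 0.18, adjusted p = 0.00318). NOP9, an RNA-binding processome factor, was at 15.1, 13.8 and 11.7 against 21.5, 18.3 and 19.4 CPM (−0.55 ± 0.13, adjusted p = 0.00917). RRP8, NOL7, NOP14, RRP12, NOP9 and UTP3 kept their calls without each of the 6 control libraries in turn. PES1 (−0.37 ± 0.11, adjusted p = 0.0326) and NCL (−0.39 ± 0.12, adjusted p = 0.0330) lost theirs without si_NC replicate 1 or 3 or OE_NC replicate 2 or 3. The other lower calls were UTP20 (−0.40), NOL10 (−0.36), NOL8 (−0.25) and UTP6 (−0.24); UTP20 lost its call without si_NC replicate 1, and each of the others lost its call without OE_NC replicate 2 and at least 1 si_NC library.

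Among the higher exosome genes, EXOSC10, the nuclear catalytic exonuclease, was at 77.0, 63.7 and 65.3 CPM in OE_NC and 59.5, 49.6 and 57.6 CPM in si_NC (0.30 ± 0.10, edgeR adjusted p = 0.0404). EXOSC7, a ring subunit, was at 19.2, 14.7 and 16.5 against 12.9, 11.3 and 13.5 CPM (0.42 ± 0.13, adjusted p = 0.0316). OE_NC replicate 1 was the highest library in both, and all 4 exosome calls and that of NOL11 (0.43 ± 0.14) ended without that library or without si_NC replicate 2. EXOSC1 and EXOSC7 also lost the call without si_NC replicate 1 or OE_NC replicate 3, EXOSC8 and EXOSC10 without si_NC replicate 3, and NOL11 without si_NC replicate 1 or OE_NC replicate 2. EXOSC8 (0.63 ± 0.20) and the cap subunit EXOSC1 (0.61 ± 0.20) had the largest differences, and both were at levels of 3.34 to 26.5 CPM in these libraries. The other 6 exosome genes were not called, with log2 changes of −0.21 for EXOSC9 to 0.28 for EXOSC5. The count of 17 called members was 9 without si_NC replicate 1, 11 without si_NC replicate 3 or OE_NC replicate 2, and 29 (26 lower, 3 higher) without si replicate 3 and si_NC replicate 2 together. All genes went from 3215 calls to 2191, 2463, 1882 and 3928 in these refits.

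The last comparison tested whether the members' change with HGFAC overexpression differed from their change with interference. These 2 changes share no library. The difference, OE change minus si change, was positive and called for 7 of the 61 members and negative and called for 0, where 8.41% of all genes were called by edgeR, 4.29% positive and 4.12% negative. At an unadjusted p under 0.05 there were 15 positive and 1 negative, against 12% and 12.4% of all genes. The DESeq2 Wald test called 9 and limma on log2 RPKM 3, all positive. All genes gave 1956 calls (12%) by DESeq2, 1071 positive and 885 negative. By limma they gave 1425 (8.74%) with 1 added to RPKM, 264 positive and 1161 negative. With 0.1 added they gave 1397 (8.57%), 250 positive and 1147 negative. The 7 were UTP14A, UTP3, UTP6, UTP25 and NOL10 of the small subunit and NOL8 and PES1 of the large subunit. The median difference was 0.16 over the members and −0.02 over all genes. With library totals the median of all genes shifted to −0.16, the members' to 0.02, the called members to 2, and calls among all genes from 700 positive and 671 negative to 265 and 1269. With the length trend removed, 13 members were called, all positive, and all genes split into 1365 positive and 447 negative.

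In 6 of the 7 genes the change was below 0 with interference and above 0 with overexpression. These genes were picked for a positive difference, which favours such signs, and with overexpression 0 of the 61 members were called. UTP14A had log2 changes of −0.25 ± 0.06 with interference and 0.20 ± 0.06 with overexpression, a difference of 0.44 ± 0.09 (edgeR adjusted p = 0.00914). Its libraries were at 503, 490 and 513 CPM in si and 625, 592 and 571 CPM in si_NC, without overlap, as they were in OE against OE_NC. UTP3 had −0.37 ± 0.08 and 0.18 ± 0.08, a difference of 0.55 ± 0.12 (adjusted p = 0.0127), with OE at 209.5, 219 and 219.9 and OE_NC at 202, 188 and 182 CPM. UTP6 had −0.19 ± 0.06 and 0.22 ± 0.06, a difference of 0.41 ± 0.09 (adjusted p = 0.0131). These 3 processome genes kept the call without each of the 12 libraries in turn. UTP25, a further processome protein, had −0.31 ± 0.08 and 0.18 ± 0.08, a difference of 0.48 ± 0.11 (adjusted p = 0.0184), and lost its call without OE replicate 1 or OE_NC replicate 2. NOL8 had −0.17 ± 0.06 and 0.21 ± 0.06 (difference 0.38 ± 0.09, adjusted p = 0.0188) and NOL10 −0.46 ± 0.10 and 0.13 ± 0.10 (difference 0.59 ± 0.15, adjusted p = 0.0258). PES1 differed from these in being below 0 in both, at −0.75 ± 0.11 and −0.16 ± 0.11 (difference 0.60 ± 0.16, adjusted p = 0.0350). NOL8, NOL10 and PES1 kept their calls in 7, 4 and 3 of the 12 refits, and all 3 lost them without si replicate 1, OE replicate 1, OE replicate 2 or OE_NC replicate 2. The count of 7 was 3 without OE replicate 1 or OE_NC replicate 2, 4 without si replicate 1 or OE replicate 2, 11 without OE_NC replicate 1, 12 without si_NC replicate 2 and 12 without si replicate 3 and si_NC replicate 2 together. All genes went from 1371 calls to 735, 588, 603, 598, 1119, 1308 and 2305 in these refits.

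**Figure D5:**
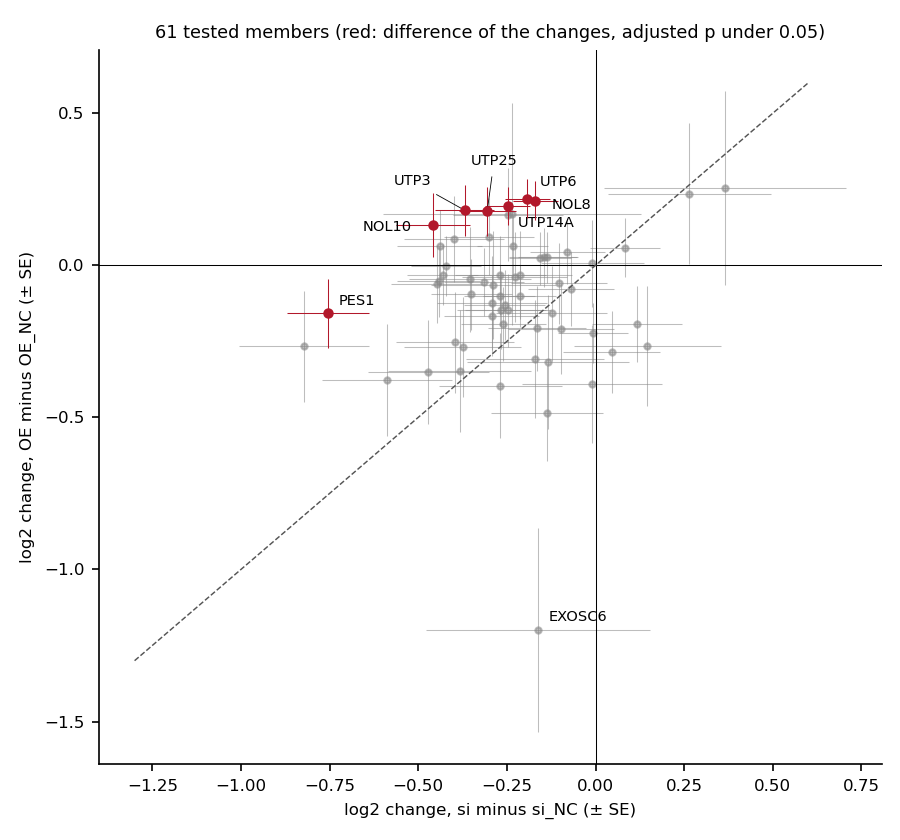
log2 change in OE minus OE_NC against log2 change in si minus si_NC for the 61 tested members, with SE bars and the line of equal change dashed; members whose difference of changes passed edgeR are red. The 7 red genes lie above the dashed line, 6 of them left of 0 and above 0, and EXOSC6 lies lowest.

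The exosome genes did not share that direction: 7 of 10 had a negative difference of changes, with a median of −0.25 and 0 called. Of the 24 genes listed under the small subunit, RRP8 included, 21 had a positive one, with a median of 0.28. The difference between these roles was not tested. Box H/ACA proteins had differences of 0.07 to 0.11.

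Genes of the same pathway outside the set were read from 4 lists of 105 symbols, of which 100 were found and tested; the lists were written with earlier results of these data known. In si minus si_NC, 6 of the 100 were lower and 0 higher, against the same 1.62% and 0.92% of all genes, with 86 negative changes, a median of −0.20 and 44 lower against 0 higher at an unadjusted p under 0.05 (9.88% and 9.03% of all genes). They were TSR1, a late small subunit factor (−0.56 ± 0.11, edgeR adjusted p = 0.0204), TWISTNB, an RNA polymerase I subunit (−0.42 ± 0.10, adjusted p = 0.0337), and the large subunit factors GTPBP4 (−0.36), LAS1L (−0.31), GNL2 (−0.36) and EBNA1BP2 (−0.44). TSR1 was at 309 ± 25.7 CPM in si and 455 ± 76.7 in si_NC, and TWISTNB at 103 ± 1.23 and 138 ± 19.3. This count was 0 without si_NC replicate 1 or 3 or si replicate 1 or 2, 2 without si replicate 3 and 40 without si_NC replicate 2, in refits whose calls among all genes are given above.

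With overexpression, 1 of the 100 rose and 0 fell, against 2.22% and 2.25% of all genes; at an unadjusted p under 0.05 there were 6 higher and 6 lower, against 11.1% and 11.8%. It was ESF1, a nucleolar pre-rRNA processing factor, at 362 ± 2.85 CPM in OE and 287 ± 11.2 in OE_NC (0.34 ± 0.08, edgeR adjusted p = 0.0392), and its call ended without any 1 of the 6 libraries. With library totals ESF1 was not called and 1 other listed gene was, lower. With the length trend removed ESF1 was also not called and 1 other listed gene was, higher. Between the controls 17 were lower and 1 higher in OE_NC, against 10.2% and 9.49% of all genes, a split that became 5 and 5 with library totals; MDN1, a very large ATPase of the large subunit (−0.54 ± 0.09, adjusted p = 0.00114), RPAP3 (−0.40 ± 0.07, adjusted p = 0.00228) and SURF6 (−0.51 ± 0.11, adjusted p = 0.00495) led the falls, and EIF6, an anti-association factor of the large subunit, was higher (0.51 ± 0.15, adjusted p = 0.0264). That count of 18 was 6 to 8 without si_NC replicate 1, si_NC replicate 3, OE_NC replicate 2 or OE_NC replicate 3. Calls among all genes went from 3215 to 2191, 2463, 1882 and 2618 in these refits. The difference of the 2 changes was positive and called for 14 and negative and called for 0, against 4.29% and 4.12% of all genes, led by MDN1 (0.58 ± 0.12, adjusted p = 0.0118), BMS1 (0.44 ± 0.10, adjusted p = 0.0152) and TWISTNB (0.58 ± 0.13, adjusted p = 0.0184); 29 were positive and 1 negative at an unadjusted p under 0.05, against 12% and 12.4%. The count of 14 was 28 without si_NC replicate 2 and 2 to 5 without any 1 of si replicates 1 and 2, si_NC replicates 1 and 3, OE replicates 1, 2 and 3 and OE_NC replicates 2 and 3. Calls among all genes went from 1371 to 1308 without si_NC replicate 2 and to 588 to 1196 in the other refits named. MYC itself was at 28.5 ± 5.66 CPM in si and 33.7 ± 5.75 in si_NC (−0.24 ± 0.14, adjusted p = 0.356) and at 26.8 ± 0.608 in OE and 28.5 ± 0.277 in OE_NC (−0.09 ± 0.14, adjusted p = 0.736).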

How the data were processed

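RNA from 12 libraries, grouped by sample title, was analysed from tables of the whole series. The authors deposited raw counts and RPKM for each gene, made with fastp (version 0.23.0) and featureCounts (Subread version 1.5.1) per the submitters' processing notes. The aligner, build, annotation, counting strand and handling of multi-mapping reads were not given in the sources used here. RPKM recomputed from the deposited counts, exon lengths and column totals differed by at most 5.3e-15 in relative terms. Between 66.2 and 69.3% of nonzero counts were even, so halved counts were also tried. The 2 entries naming no gene (0.0868 to 0.116% of counts) were left out, and 0 columns were unmapped.

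Counts were fitted with edgeR 4.0.16 in R 4.3.3 (TMM, filterByExpr with minimum count 10 and total 15, 16300 genes, quasi-likelihood F test, 1 fit of 12 libraries, leaving 8 residual degrees of freedom). Benjamini-Hochberg adjustment ran over all genes tested, with a threshold of 0.05. Each standard error is the log2 change over the root of its F statistic. CPM are scaled by TMM; RPKM were used for levels between genes. limma 3.58.1, on log2(RPKM + 1) and log2(RPKM + 0.1), and DESeq2 1.42.0 were alternatives, with those in the closing section. The procedure was also run on simulated counts with known changes, in which genes varied independently. Those counts lacked the shared shifts of members between libraries described above, so that run does not bear on them.

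The members, lists and tests were chosen with earlier results of these data known. Genes named were all called members, the 2 highest and the lowest of each role, members below the filter, 3 complexes, up to 4 called pathway genes per list, and further genes chosen after their values were seen: the uncalled members and markers given as values. Chromosome numbers follow a RefSeq gene table (ARS-UCD2.0), in which 61 of 62 symbols matched. No sequence was analysed here.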

Additional observations from a re-analysis of the deposited data

Results flagged for a closer look

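For 7 members the change with overexpression and the change with interference differed by the test of the difference itself (edgeR interaction contrast, adjusted over all genes). The log2 difference, OE change minus si change, was 0.44 for UTP14A, 0.55 for UTP3, 0.41 for UTP6, 0.48 for UTP25, 0.38 for NOL8, 0.59 for NOL10 and 0.60 for PES1. UTP14A, UTP3 and UTP6 passed without each of the 12 libraries in turn, and the other 4 did not. The 2 changes come from experiments with different controls, and in OE_NC UTP3, UTP6, NOL8, NOL10 and PES1 were themselves lower than in si_NC. The part of that gap between the controls in the differences was not tested.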

How the results depend on the processing

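Counts of called members or listed pathway genes were recomputed in each setting. Of the named genes called in a comparison, 0 reversed their sign in it, and uncalled genes were not counted here. The counts for interference, overexpression, the controls and the difference were 6, 0, 17 and 7 for members and 6, 1, 18 and 14 for pathway genes. All genes gave 414 (2.54%), 728 (4.47%), 3215 (19.7%) and 1371 (8.41%) calls. Library totals gave 2, 1, 13 and 2 members, and 1, 1, 10 and 5 pathway genes, where all genes gave 404, 812, 3242 and 1534 calls. For overexpression the pathway gene was 1 lower in place of 1 higher. For the controls 5 pathway genes were lower and 5 higher in place of 17 and 1. The DESeq2 Wald test gave 15 and 5 members for interference and overexpression and 21 and 3 pathway genes, where all genes gave 1125 and 1546 calls. DESeq2 size factors gave 10 pathway genes for interference, where all genes gave 495. No filter gave 25, 10, 23 and 17 members, and 38, 4 and 28 pathway genes for interference, overexpression and the difference. All 29240 genes gave 1208 (4.13%), 1679 (5.74%), 3647 (12.5%) and 1930 (6.60%) calls there. limma on log2(RPKM + 1) gave 1, 0, 13 and 3 members and 0, 0, 10 and 4 pathway genes, and with 0.1 added 1, 0, 12 and 3, and 0, 0, 10 and 3. All genes gave 329, 612, 3189 and 1425 calls with 1 added, and 324, 523, 3135 and 1397 with 0.1 added. Removing the length trend gave 17, 0, 20 and 13 members, and 26, 29 and 27 pathway genes for interference, the controls and the difference. All genes gave 1093, 539, 3794 and 1812 calls there. For overexpression it moved the median log2 change from −0.06 to 0.00 for members and from −0.02 to 0.04 for pathway genes. Without si replicate 3 and si_NC replicate 2 together, libraries picked by the members' own summed level, the counts were 19, 8, 29 and 12, and 36, 5, 40 and 31. All genes gave 1119 (6.70%), 2325 (13.9%), 3928 (23.5%) and 2305 (13.8%) calls there. Fits of only the groups compared gave 0, 5 and 10 members and 0, 2 and 6 pathway genes, where all genes gave 8, 1621 and 2413 calls. For the difference this fit equals that of all libraries and was not run. Leaving out 1 library gave 1 to 24, 0 to 0, 9 to 15 and 3 to 12 members, and 0 to 40, 0 to 0, 6 to 26 and 2 to 28 pathway genes. Halved counts gave 7, 0, 18 and 7 members and 8, 1, 17 and 13 pathway genes. All genes gave 433, 858, 3184 and 1380 calls there, of 14614 tested. With replicate number as a block, 8, 2, 17 and 9 members were called, where all genes gave 396, 803, 3150 and 1247 calls. In deviations from their group means, same-numbered libraries correlated at −0.26 to 0.19 and differently numbered ones at −0.26 to 0.33. Whether the numbers pair the samples cannot be told from these values. The refits of the named called genes fell short of the threshold, with their sign kept, in 96 of 216 for interference and 10 of 18 for overexpression. For the controls these were 153 of 558 and for the difference 147 of 437. The cause of these shifts was not tested. With 3 libraries a group, EXOSC6, IMP3 and NOL4L, at few CPM, had the widest intervals.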
